A study of Mus musculus with 9 samples.

Results

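Epicardial and mesothelial marker genes and simple epithelial keratins were examined in the heart of mice that had received a vector for the cytokine oncostatin M. The group holds 9 of the 13192 genes in the count table, taken by symbol from a marker list that was drawn up with earlier results of the same counts in view. The 5 marker genes were Upk3b, Bnc1, Wt1, Slc39a8 and Clu, and the 4 keratins, kept apart, were Krt7, Krt8, Krt18 and Krt19. All 9 were in the table and passed the filter on low counts. The libraries were made from apex tissue of male wild-type C57BL/6J mice injected in the right gastrocnemius muscle at 10 weeks of age, with the heart taken 12 weeks later. The dose was 1e+11 viral particles throughout. AAV-Osm (5 libraries) is an adeno-associated virus that carries the gene of oncostatin M, and AAV-Null (4 libraries) is the control vector given to otherwise alike wild-type mice. The promoter of the vector is not given in the labels, and Osm, the delivered gene, was not analysed here and gave no check of the groups.

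The outer surface of the heart is covered by the epicardium, a mesothelium continuous with the lining of the pericardial cavity. Mesothelial cells are unusual in joining epithelial features, among them keratin filaments and uroplakin-family surface proteins, with transcription factors of the mesoderm such as Wt1. In the embryo the epicardium gives rise to fibroblasts and mural cells and supplies retinoic acid, and in the adult it is a thin layer whose marker genes are rare in RNA from whole myocardium. Keratins of simple epithelia form filaments only as pairs of a type II protein, here Krt7 or Krt8, with a type I protein, here Krt18 or Krt19.

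Promoter sequence was looked up because most of these genes varied together between libraries. RefSeq's table for GRCm38.p6 (the mm10 assembly) held an entry for 6 of the 9 genes, and none for Krt19, Wt1 and Clu. The windows run from 250 bases before to 50 after the start site, 5′ to 3′ on the strand of the gene. Those shown are 4, that of Upk3b and those of the keratins Krt7, Krt8 and Krt18, with matches to the searched motifs in capitals. They lie at chr5:136038246-136038545 (plus strand, Upk3b), chr15:101412153-101412452 (plus strand, Krt7), chr15:102004293-102004592 (minus strand, Krt8) and chr15:102027966-102028265 (plus strand, Krt18).
Upk3b: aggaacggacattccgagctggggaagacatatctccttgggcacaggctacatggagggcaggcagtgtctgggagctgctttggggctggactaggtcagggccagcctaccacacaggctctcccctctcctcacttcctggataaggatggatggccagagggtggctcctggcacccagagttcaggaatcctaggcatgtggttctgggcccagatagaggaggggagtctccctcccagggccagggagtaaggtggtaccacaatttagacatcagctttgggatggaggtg
Krt7: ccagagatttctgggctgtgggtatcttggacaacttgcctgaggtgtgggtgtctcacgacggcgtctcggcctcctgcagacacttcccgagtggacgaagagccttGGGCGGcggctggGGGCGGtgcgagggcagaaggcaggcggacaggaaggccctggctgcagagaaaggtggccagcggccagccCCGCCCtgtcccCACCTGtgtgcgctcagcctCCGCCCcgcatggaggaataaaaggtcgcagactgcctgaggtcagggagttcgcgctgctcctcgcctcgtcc
Krt8: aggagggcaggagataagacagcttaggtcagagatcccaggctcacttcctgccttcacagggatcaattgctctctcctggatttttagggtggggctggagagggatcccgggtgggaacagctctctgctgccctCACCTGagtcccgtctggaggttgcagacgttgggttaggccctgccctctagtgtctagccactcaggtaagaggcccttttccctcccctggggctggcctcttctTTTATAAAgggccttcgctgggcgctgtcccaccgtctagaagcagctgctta
Krt18: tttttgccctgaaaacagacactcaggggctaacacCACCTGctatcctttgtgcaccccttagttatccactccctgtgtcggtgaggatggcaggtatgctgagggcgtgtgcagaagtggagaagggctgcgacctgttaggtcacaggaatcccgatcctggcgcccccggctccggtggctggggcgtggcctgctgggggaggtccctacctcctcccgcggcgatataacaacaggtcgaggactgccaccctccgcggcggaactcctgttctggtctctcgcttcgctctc
The motifs, each searched on both strands, were the TATA box (TATAAA), the GC box (GGGCGG), the CCAAT box, the spaced palindrome of STAT factors (TTCNNNGAA), the AP-1 palindrome with any central base (TGANTCA) and the E-box form of Snail and Zeb factors (CACCTG). That E-box stood in 3 of the 6 windows (Krt7, Krt8 and Krt18) and in 20.2% of the 32851 windows of the same length in the table. The GC box stood in 2 of 6, with 4 matches in Krt7 and 6 in Bnc1, against 35.7% of all windows. The TATA box sequence stood in the Krt8 window alone, against 13.6% of all windows. Its matches on the 2 strands overlap and lie across the annotated start site, at -3 to 3 and -1 to 5. No match to the CCAAT box, the STAT palindrome or the AP-1 palindrome lay in these 6 windows, and those motifs stood in 37.4%, 8.30% and 7.81% of all windows. The GC content was 58.7% for Upk3b, 66.3% for Krt7, 58.0% for Krt8 and 61.3% for Krt18, against a median of 52.7% over all windows. The Upk3b window held none of the 6 motifs, so the 4 windows shown share no motif among those searched. Krt8 and Krt18 lie near each other on chromosome 15 and are transcribed away from each other, a keratin type II gene beside its type I partner.

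The libraries held 11841106 to 30625134 counts over the named genes. Heart muscle markers were abundant in every library: Myl2, the ventricular myosin light chain, had 17704 to 25235 CPM in AAV-Osm and 17862 to 27609 CPM in AAV-Null libraries, where CPM is the count scaled to a common library size after TMM scaling. Some libraries stood apart for the genes described here. AAV-Osm 5 held the lowest value of 6 of the 9 genes, AAV-Null 4 the highest value of 5, and AAV-Null 3 was close to AAV-Null 4 for 3 keratins. The libraries AAV-Null 1 and AAV-Null 2 were more alike over all genes than any other pair, followed by AAV-Osm 2 and AAV-Osm 3, and none held identical values. In RNA from whole tissue, fewer cells of a type and less RNA per cell cannot be told apart. Because the genes were chosen with these values known, their levels and differences are given as a description. Test results that appear below for these genes carry no weight of their own.

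Per kilobase of exon, Clu was by far the most abundant of the 9, at 520 ± 75.1 CPM per kb in AAV-Osm and 471 ± 67.7 CPM per kb in AAV-Null libraries (SD, n = 5 and n = 4 here and below). Upk3b came next, with a level of 5.66 ± 3.01 in AAV-Osm and 14.2 ± 8.89 CPM per kb in AAV-Null libraries. Krt19 was the most abundant of the 4 keratins, at 2.17 ± 1.06 in AAV-Osm and 7.22 ± 4.81 CPM per kb in AAV-Null libraries. Krt18 followed with 1.27 ± 0.603 and 2.75 ± 1.40, then Krt8 with 0.714 ± 0.310 and 2.12 ± 1.56, and Krt7 with 0.517 ± 0.246 and 1.54 ± 0.956 CPM per kb, the AAV-Osm level first in each pair. Wt1 was at 0.637 ± 0.386 in AAV-Osm and 0.926 ± 0.401 CPM per kb in AAV-Null libraries, and Slc39a8 at 0.441 ± 0.144 and 1.0 ± 0.275 CPM per kb in the same order of groups. Bnc1 was the least abundant, at 0.0821 ± 0.0472 in AAV-Osm and 0.184 ± 0.0560 CPM per kb in AAV-Null libraries. Within each group, the range of the mean ± 1 SD of Clu and that of Bnc1 met no other gene's range, and each of the other 7 genes had a range that overlapped that of a neighbour in this order.

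Of the 5 marker genes, Upk3b, Bnc1 and Slc39a8 were lower in AAV-Osm than in AAV-Null libraries, each by more than 2-fold in the fit. Wt1 differed by less than that and not in the same libraries, and Clu was not lower. Upk3b, a uroplakin-family membrane protein used as a marker of mesothelium, had 15.1, 11.7, 18.8, 9.40 and 2.61 CPM in AAV-Osm 1 to 5, against 19.2, 18.6, 22.0 and 56.0 CPM in AAV-Null 1 to 4. The 2 groups met only where AAV-Osm 3 passed AAV-Null 2, and the ends of the range, AAV-Osm 5 and AAV-Null 4, were 21.4-fold apart. The fitted level of Upk3b was 2.51-fold lower in AAV-Osm libraries, a log2 fold change of -1.33 (SE 0.45). Without AAV-Null 4 and AAV-Osm 5 together it was -0.53, so the size of the difference rested in large part on those 2 libraries.

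Bnc1, a zinc finger transcription factor of stratified epithelia, germ cells and mesothelium, was near the lower edge of what the table lists. It had 11, 6, 11, 4 and 2 counts in AAV-Osm 1 to 5, against 22, 19, 16 and 21 counts in AAV-Null 1 to 4. On the CPM scale these were 0.44, 0.33, 0.71, 0.35 and 0.095 in AAV-Osm and 1.10, 0.78, 0.53 and 1.03 in AAV-Null libraries. AAV-Osm 3 was the only AAV-Osm library inside the AAV-Null range. The log2 fold change was -1.16 (SE 0.42). Every gene in the table had at least 0.506 CPM in 4 or more libraries, a level that Bnc1 reached in all 4 AAV-Null libraries and in 1 AAV-Osm library, so a gene at its level is in the table through the group where it is higher. A pseudogene on the opposite strand overlaps the start of Bnc1 in the GENCODE annotation. With the strand setting not given in the sources used here, its reads in that stretch cannot be told apart from those of Bnc1.

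Slc39a8, a transporter that brings zinc and manganese ions into the cell, showed the steadiest difference of the 9 genes. Its values were 2.59, 1.20, 1.79, 1.83 and 1.23 CPM in AAV-Osm 1 to 5, against 4.56, 3.95, 2.40 and 4.79 CPM in AAV-Null 1 to 4. All AAV-Osm values but that of AAV-Osm 1 lay below the lowest AAV-Null value, that of AAV-Null 3. The log2 fold change was -1.17 (SE 0.28), the smallest SE among the genes that were lower. It was -1.29 without AAV-Null 3 and AAV-Null 4, and -0.94 without AAV-Null 4 and AAV-Osm 5. Overlapping transcripts are annotated within Slc39a8 on both strands, which leaves the assignment of some reads uncertain.

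Wt1, the Wilms tumour transcription factor that marks the developing and activated epicardium, did not follow the other markers. It had 1.91, 1.09, 1.41, 1.39 and 4.04 CPM in AAV-Osm 1 to 5, against 4.36, 3.21, 2.47 and 1.42 CPM in AAV-Null 1 to 4. The library with the lowest Upk3b, AAV-Osm 5, had the highest Wt1 of its group, and the library with the highest Upk3b, AAV-Null 4, had the lowest Wt1 of its group. The log2 fold change of Wt1 was -0.51 (SE 0.39), and without those 2 libraries it was -1.17. Clu, a secreted chaperone made by many cell types of the heart, was nearly level, with 889, 1074, 1095, 841 and 801 CPM in AAV-Osm 1 to 5, against 767, 737, 905 and 999 CPM in AAV-Null 1 to 4. Its highest and lowest libraries were 1.49-fold apart, and its log2 fold change was 0.14 (SE 0.15), the only positive value among the 9.

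**Figure D1:**
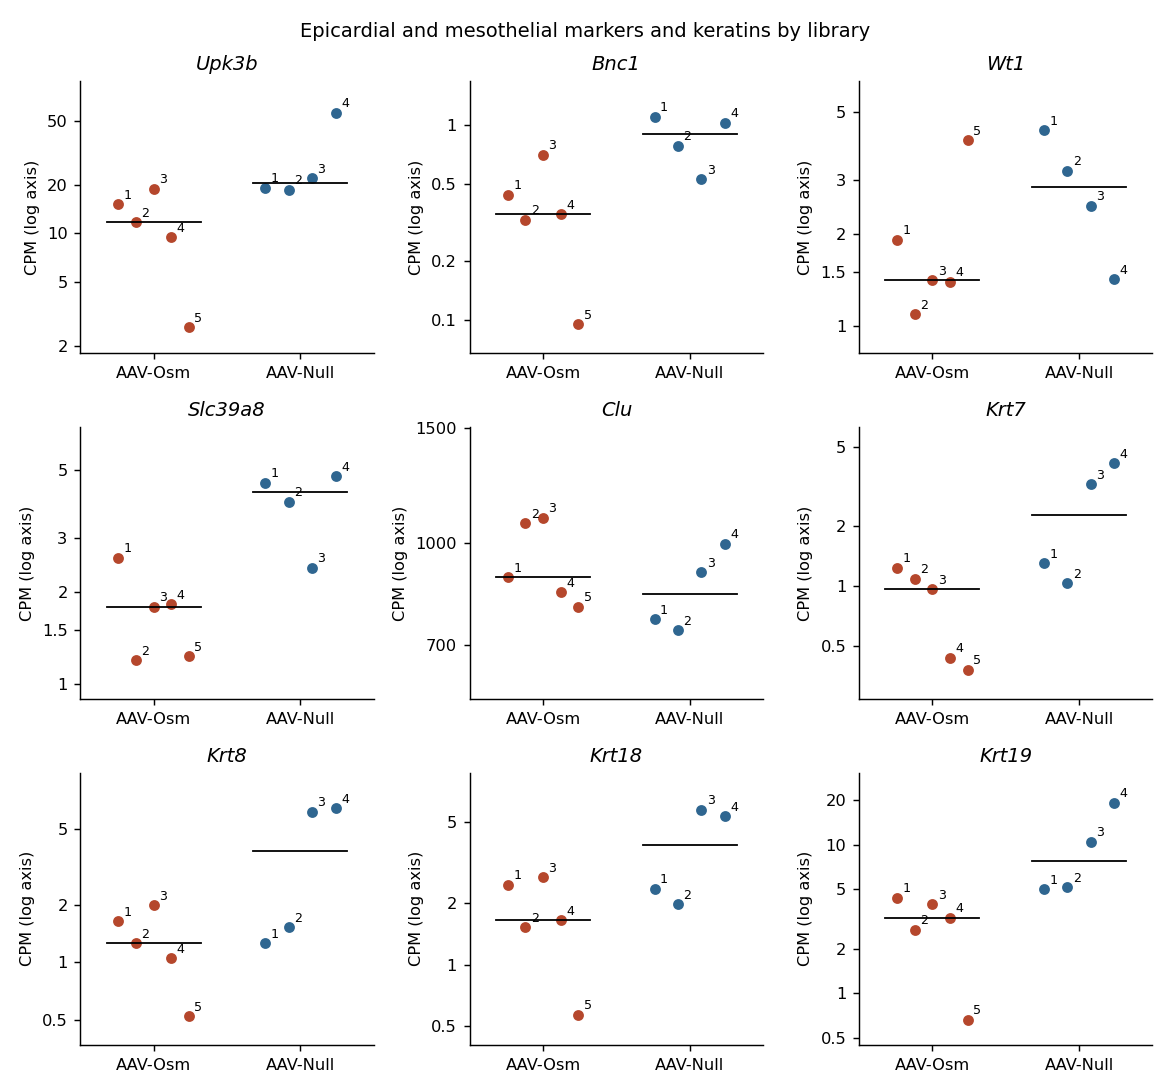
Scaled expression of the 9 genes in each library, in CPM on log axes that differ between panels. Points are single libraries, numbered within AAV-Osm (n = 5) and AAV-Null (n = 4), and bars are group medians; with this TMM scaling Krt19 alone shows no overlap between the groups, and Wt1 is high in AAV-Osm 5 where Upk3b is lowest.

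The 4 keratins were lower in AAV-Osm libraries as well, but the higher AAV-Null values of 3 of them came from 2 libraries. Krt19, a type I keratin of simple epithelia and mesothelium, had 4.38, 2.67, 3.97, 3.22 and 0.66 CPM in AAV-Osm 1 to 5, against 5.01, 5.15, 10.4 and 19.1 CPM in AAV-Null 1 to 4. It was the only gene of the 9 whose groups did not overlap, joined by Upk3b when libraries were scaled by total counts alone. Over all genes, 2.28% did not overlap in either direction, 1.23% with AAV-Osm lower. Nothing is read from this count, since the same contrast was known when the genes were chosen. The log2 fold change of Krt19 was -1.73 (SE 0.47), or 3.33-fold lower, and it was -0.77 without AAV-Null 3 and AAV-Null 4.

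Krt8, the type II partner of Krt18, had 1.63, 1.25, 1.99, 1.04 and 0.52 CPM in AAV-Osm 1 to 5, against 1.25, 1.52, 6.12 and 6.41 CPM in AAV-Null 1 to 4. AAV-Null 1 and AAV-Null 2 lay inside the AAV-Osm range, while AAV-Null 3 and AAV-Null 4 lay well above it. Krt18 had 2.47, 1.53, 2.69, 1.65 and 0.57 CPM in AAV-Osm 1 to 5, against 2.36, 1.98, 5.75 and 5.33 CPM in AAV-Null 1 to 4, the same arrangement. Krt7, a type II keratin of ducts and mesothelium, had 1.24, 1.09, 0.96, 0.44 and 0.38 CPM in AAV-Osm 1 to 5, against 1.30, 1.03, 3.26 and 4.16 CPM in AAV-Null 1 to 4. For Krt7 too, AAV-Null 2 fell inside the AAV-Osm range and AAV-Null 1 lay just above it. The log2 fold changes were -1.57 (SE 0.50) for Krt8, -1.12 (SE 0.41) for Krt18 and -1.53 (SE 0.45) for Krt7. With AAV-Null 3 and AAV-Null 4 left out, the values were -0.11, -0.28 and -0.46 in the same order, so these differences were mainly those of 2 AAV-Null libraries. A lincRNA on the opposite strand overlaps the start of Krt8 in the annotation and adds the same uncertainty for that stretch as for Bnc1.

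**Figure D2:**
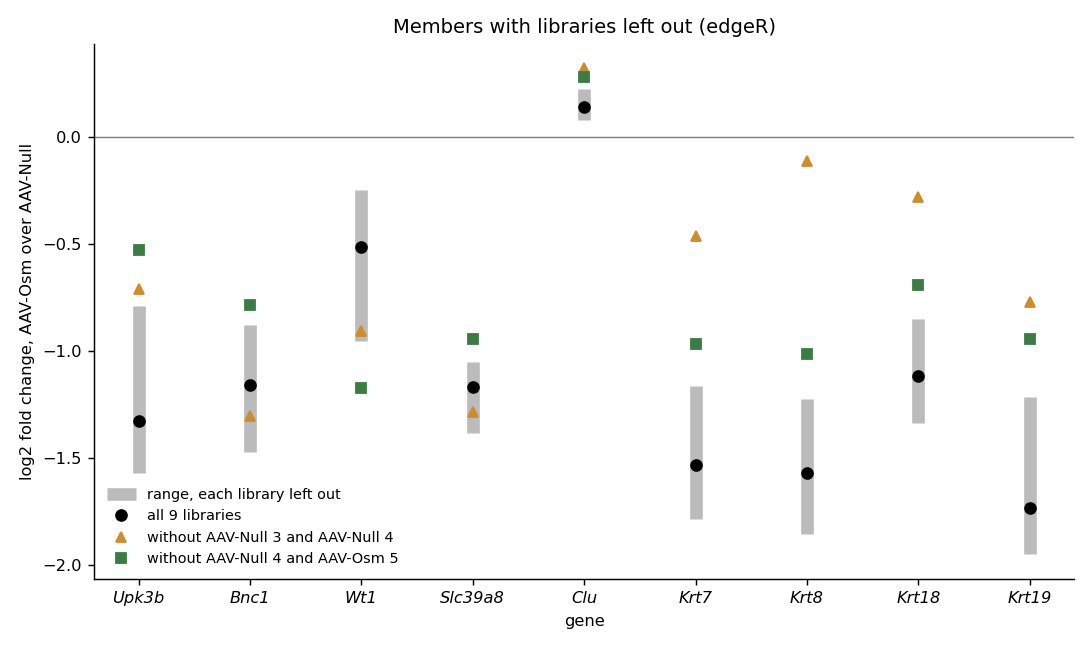
Fitted log2 fold change, AAV-Osm over AAV-Null, of each of the 9 genes with all libraries (circles), with each library left out in turn (grey range), without AAV-Null 3 and AAV-Null 4 (triangles) and without AAV-Null 4 and AAV-Osm 5 (squares). Krt8 and Krt18 came close to 0 without AAV-Null 3 and AAV-Null 4, while Slc39a8 stayed between -1.38 and -0.94 under all of these choices.

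Across the 9 genes, 8 had a negative log2 fold change, as did 48.1% of all genes. None passed an adjusted p of 0.05 in edgeR's quasi-likelihood test, a threshold that 16 of the 13192 genes passed (0.121%). Of those, 11 were higher in AAV-Osm (0.0834% of all genes) and 5 lower (0.0379%). At an unadjusted p under 0.05 there were 7 of the 9, the 4 keratins and 3 of the other genes, all of them lower in AAV-Osm, against 5.97% of all genes in either direction and 3.09% lower. DESeq2 placed 1 of the 9 past the adjusted threshold, as did limma-voom with quality weights, in both cases Slc39a8. These counts describe genes that were picked from the same contrast and carry no weight of their own.

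Levels of most of the 9 genes varied together between libraries, which share their RNA source, depth and scaling from gene to gene. On log2 CPM over the 9 libraries, Upk3b and Krt19 had a Pearson r of 0.97 and a Spearman rho of 0.90, with r at 0.79 once AAV-Osm 5 and AAV-Null 4 were left out. Krt8 and Krt18 had r = 0.95 and rho = 0.95, and r stayed at 0.95 without AAV-Null 3 and AAV-Null 4. Upk3b and Bnc1 had r = 0.90 and rho = 0.83, with r at 0.74 without AAV-Osm 5 and AAV-Null 4. Slc39a8 was tied more loosely to Upk3b, with r = 0.74 and rho = 0.70. Wt1 and Upk3b had r = -0.32 and rho = 0.17, and r turned to 0.66 without AAV-Osm 5 and AAV-Null 4, so no single relation held between them. Wt1 and Clu ran opposite to each other, with r = -0.83 and rho = -0.73. All r above pool the 2 groups, so group differences known when the genes were chosen enter them. On deviations from the group means, r was 0.94 for Upk3b and Krt19, 0.93 for Krt8 and Krt18 and 0.82 for Upk3b and Bnc1. For Upk3b and Slc39a8 it was 0.50, and for Slc39a8 and Krt8 0.02, against 0.50 when pooled. Clu and Upk3b had 0.75, against 0.31 when pooled, and Wt1 and Upk3b had -0.84.

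Ratios of genes within a library do not depend on its scaling. The ratio of Upk3b to Msln, the mesothelial surface protein mesothelin, was 1.41, 1.66, 1.26, 1.29 and 1.49 in AAV-Osm 1 to 5, against 1.53, 1.63, 1.76 and 1.27 in AAV-Null 1 to 4. It varied 1.39-fold in all, while Upk3b itself varied 21.4-fold. Msln was the gene most like Upk3b over these same libraries (r = 0.99), so its steady ratio is no separate finding. The ratio of Krt19 to Upk3b varied 2.24-fold over the libraries and that of Krt18 to Upk3b 2.74-fold. Those of Bnc1, Krt7 and Krt8 to Upk3b varied 3.13-fold, 3.19-fold and 4.25-fold, the first of these from counts of 22 or fewer. The ratio of Slc39a8 to Upk3b varied 5.52-fold, from 0.0856 in AAV-Null 4 to 0.473 in AAV-Osm 5. The ratio of Wt1 to Upk3b varied 61.0-fold between the same libraries, from 0.0253 in AAV-Null 4 to 1.55 in AAV-Osm 5. Per kilobase, Krt8 stood at 0.49 to 0.71 of its partner Krt18 in AAV-Osm and at 0.41 to 0.93 in AAV-Null libraries.

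**Figure D3:**
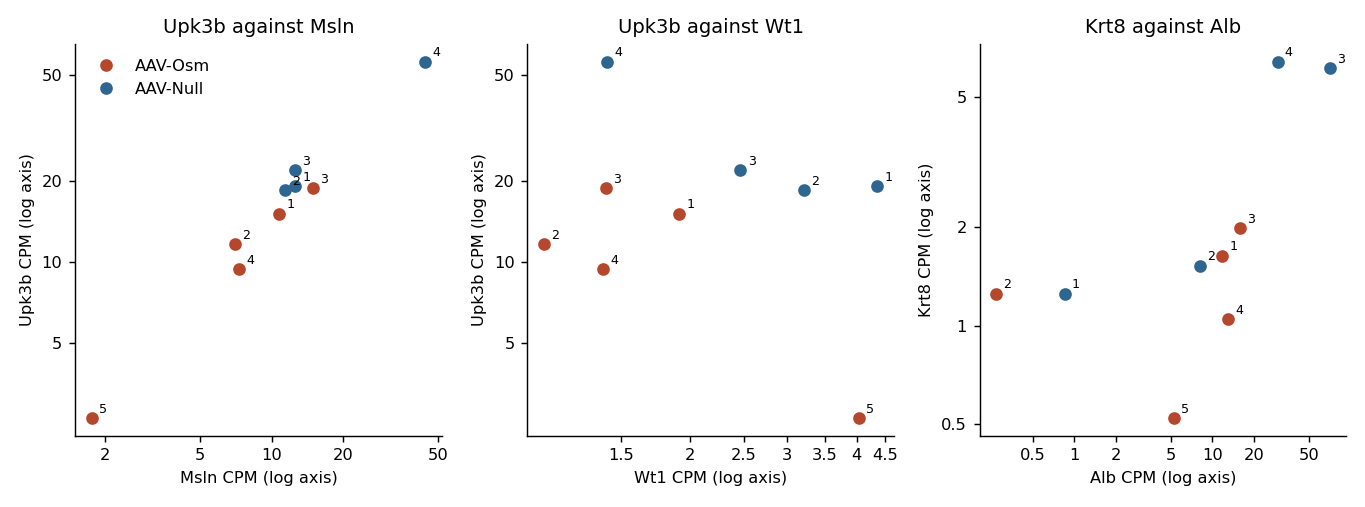
Upk3b against Msln, Upk3b against Wt1 and Krt8 against the liver gene Alb, in CPM on log axes; each point is a library, numbered within AAV-Osm (n = 5) and AAV-Null (n = 4). Upk3b and Msln lie along a line through both groups (r = 0.99), Upk3b and Wt1 do not, and Krt8 is highest in AAV-Null 3 and AAV-Null 4, which also hold the most Alb.

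The genes most like Upk3b and Krt8 over the 9 libraries were taken from the 12195 genes with a mean of at least 1 CPM. For Upk3b they were Msln (r = 0.99), the complement component C2 (0.99), the mesothelial membrane protein Lrrn4 (0.98), the matrix proteoglycan Fmod (0.98) and Myl7, the atrial myosin light chain (0.97). All 5 were lowest in AAV-Osm 5 and highest in AAV-Null 4, as Upk3b was. Picking genes by likeness favours shared end libraries, here and for Krt8 below, so this is no separate finding. Myl7 had 1.99, 1.04, 3.14, 2.00 and 0.24 CPM in AAV-Osm 1 to 5, against 2.86, 3.62, 4.14 and 11.1 CPM in AAV-Null 1 to 4. For Krt8 they were Oas1a, an interferon-induced enzyme (0.96), Wfdc2, a secreted protein of epithelia (0.96), the mast cell protease Cma1 (0.96), the spindle protein Tpx2 (0.95) and lysozyme Lyz1 (0.95). Wfdc2 had 0.56, 0.71, 0.64, 0.61 and 0.047 CPM in AAV-Osm 1 to 5, against 0.30, 0.62, 3.26 and 4.50 CPM in AAV-Null 1 to 4, the split seen for Krt8. When libraries were taken as deviations from their group means, 3 of the 5 genes most like Upk3b were the same and 1 of the 5 most like Krt8 was.

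Of 30 further epicardial and mesothelial markers, 23 were tested, and 0 passed the adjusted threshold in either direction. Their median log2 fold change was -0.26, against 0.01 over all genes, and 17 of the 23 were negative, against 48.1% of all genes. Some of these genes, picked out after their values were seen, were low in AAV-Osm 5 and high in AAV-Null 4 as Upk3b was. Msln, a surface protein, had 10.7, 7.03, 14.9, 7.31 and 1.76 CPM in AAV-Osm 1 to 5, against 12.6, 11.4, 12.5 and 44.1 CPM in AAV-Null 1 to 4. The groups overlapped, and its log2 fold change was -1.27 (SE 0.51, adjusted p = 0.755 in edgeR). Nkain4, a membrane protein found in mesothelium, had 3.11, 2.13, 4.17, 2.00 and 1.09 CPM in AAV-Osm 1 to 5, against 4.36, 4.74, 5.43 and 11.2 CPM in AAV-Null 1 to 4. The groups did not overlap for Nkain4, and its log2 fold change was -1.36 (SE 0.36, adjusted p = 0.450 in edgeR), the smallest adjusted p in the list. Msln and Lrrn4 are named for their likeness to Upk3b in these same libraries. Podxl and Tm4sf1 are named for their abundance in this list, and Upk1b for its abundance among the uroplakins. The other genes of this list are named with their values already known.

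The log2 fold change of Lrrn4 was -0.89 (SE 0.48), that of the uroplakin Upk1b -0.88 (SE 0.43) and that of the secreted Wnt signal enhancer Rspo1 -0.68 (SE 0.47), and all 3 were lowest in AAV-Osm 5 and highest in AAV-Null 4. Many others of the list lay nearer 0, surface proteins among them: Ildr2 was at 0.00 (SE 0.28), Itga4 at 0.16 (SE 0.27), Cxadr at -0.12 (SE 0.20), Pdpn at -0.22 (SE 0.27) and Alcam at -0.26 (SE 0.27). Tbx18, an epicardial T-box factor, was at 0.07 (SE 0.18), Aldh1a2, which makes retinoic acid, at 0.05 (SE 0.21), and Tcf21, a factor of epicardium and fibroblasts, at -0.25 (SE 0.29). Sema3d, a secreted guidance factor of the epicardium, was at -0.69 (SE 0.32) and was highest in AAV-Null 1. The most abundant genes of the list, Podxl and Tm4sf1, are also made by endothelial cells and stood at 0.17 (SE 0.13) and 0.00 (SE 0.17). The summed level of the 23 genes was 285 to 401 CPM in AAV-Osm and 311 to 419 CPM in AAV-Null libraries. Among the uroplakins, Upk1a and Upk1b were tested, and 0 of the 2 passed.

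**Figure D4:**
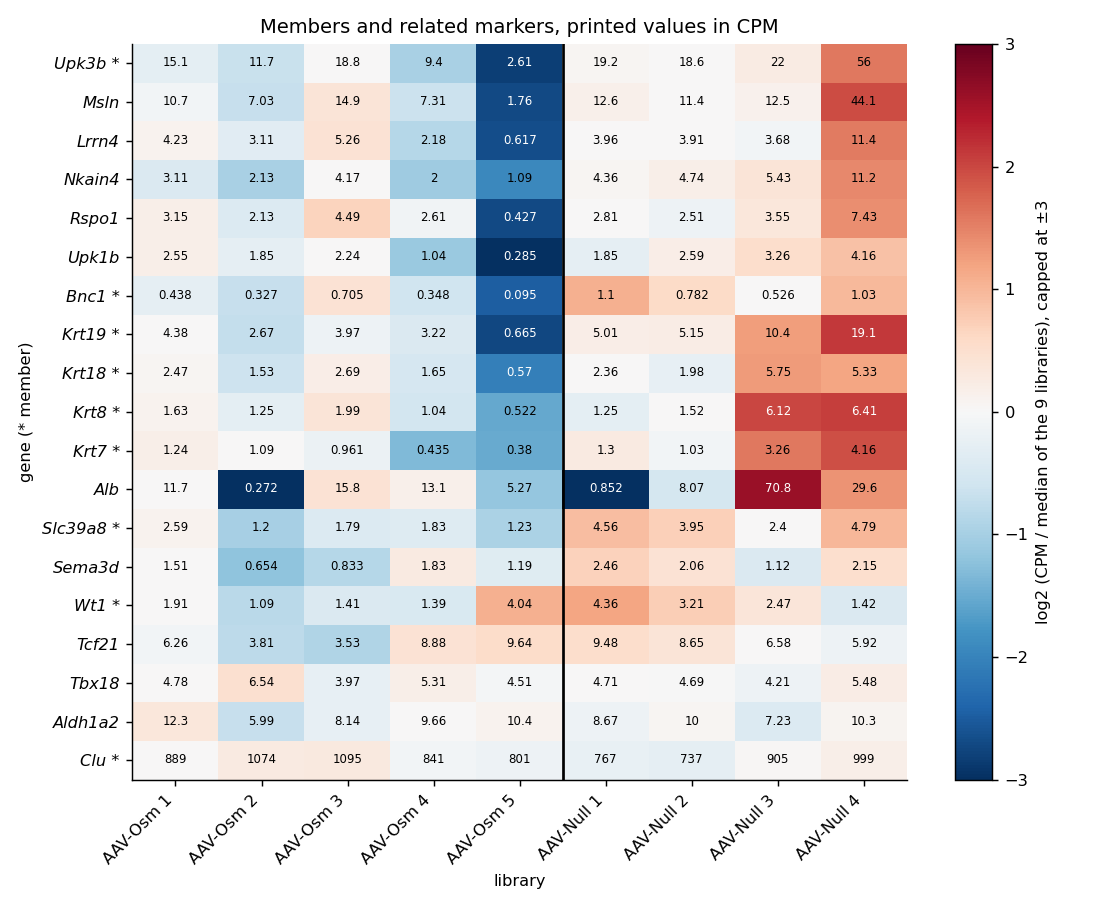
Level of the 9 genes (starred) and of related markers in each library, with AAV-Osm 1 to 5 left of AAV-Null 1 to 4; colours give log2 of CPM over the median of the 9 libraries and the printed values are CPM. Upk3b, Msln, Lrrn4, Nkain4, Rspo1 and Upk1b share the low AAV-Osm 5 and high AAV-Null 4, Krt8, Krt18 and Krt7 are high in both AAV-Null 3 and AAV-Null 4, and Wt1 and Tcf21 are high in AAV-Osm 5.

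The other keratins in the table lay nearer 0. On the log2 scale, the fold change of Krt222 was -0.03 (SE 0.13), that of Krt10, a keratin of stratified epithelium, -0.23 (SE 0.23) and that of Krt80 0.30 (SE 0.32), and 0 of the 3 passed the adjusted threshold. Krt222 was the most evenly expressed of them, at 18.3 to 25.4 CPM in AAV-Osm and 19.8 to 22.9 CPM in AAV-Null libraries. Of 30 epithelial junction genes and keratin partners, 12 were tested and 0 passed, with a median log2 fold change of 0.10. Negative values were found in 48.1% of all genes and in 5 of these 12. The most abundant were the cytoskeletal linkers Dsp (desmoplakin), at 0.19 (SE 0.17), and Plec (plectin), at 0.21 (SE 0.18), both of which heart muscle cells also make. Grhl2, an epithelial transcription factor named here after its values were seen, had the smallest adjusted p of that list, 0.497 in edgeR, and lay the other way: 1.15 to 2.55 CPM in AAV-Osm and 0.30 to 0.89 CPM in AAV-Null libraries, with no overlap and a log2 fold change of 1.23 (SE 0.36). Epcam and Cdh1, which define most epithelia, were not analysed here.

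In the pathways in which the epicardium takes part, no gene passed the adjusted threshold. Of 15 genes of retinoic acid synthesis, binding and breakdown, 10 were tested and 0 passed, with a median log2 fold change of -0.08. Dhrs3 and Rxra, the most abundant of them, were at 0.13 (SE 0.14) and 0.06 (SE 0.15). Cyp26b1, which breaks down retinoic acid and is named here after its values were seen, had the smallest adjusted p of that list, 0.0573 in edgeR, at a log2 fold change of -1.42 (SE 0.25). Its values were 4.34, 5.18, 3.72, 3.40 and 2.75 CPM in AAV-Osm 1 to 5, against 12.3, 14.3, 6.38 and 8.75 CPM in AAV-Null 1 to 4, with no overlap between the groups. Of 18 genes of epicardial epithelial-to-mesenchymal transition, 16 were tested and 0 passed, with a median of -0.05; Cdh2 was at 0.06 (SE 0.15) and Vim at -0.10 (SE 0.24). Of 13 other members of the Slc39 transporter family, 9 were tested and 0 passed, with a median of -0.06. Slc39a7 and Slc39a1, the most abundant, were at 0.07 (SE 0.20) and -0.06 (SE 0.12), against -1.17 for Slc39a8.

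**Figure D5:**
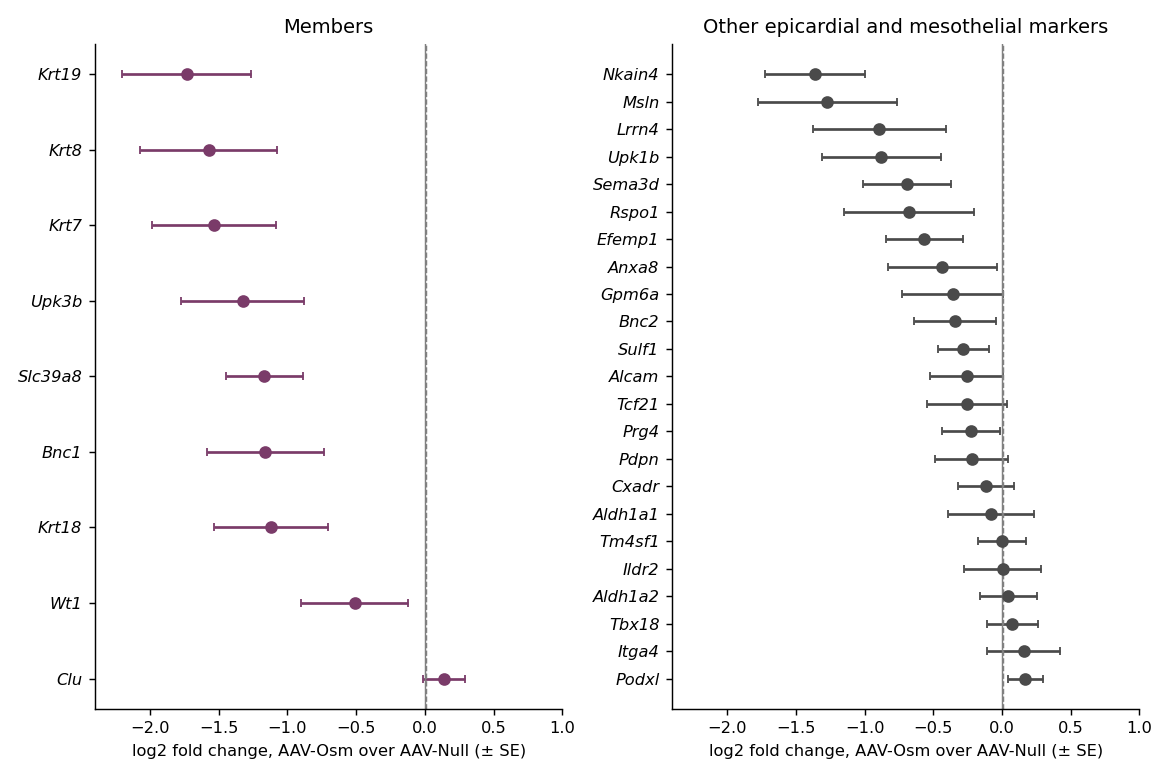
Log2 fold change, AAV-Osm over AAV-Null, with its SE, for the 9 genes (left) and the 23 other epicardial and mesothelial markers tested (right). The solid line is 0 and the dashed line the median of all 13192 genes, 0.01; Nkain4, Msln, Lrrn4 and Upk1b lie to the left in the second panel, and Tbx18, Aldh1a2 and Podxl lie near the line.

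Markers of other tissues were measured in the same libraries. Of 26 liver genes, 25 were tested and 0 passed, and their median log2 fold change was -1.28. Among those tested, 23 were negative, against 48.1% of all genes. The summed level of the liver genes was 101 to 224 CPM in AAV-Osm libraries, against 92.7, 116, 428 and 342 CPM in AAV-Null 1 to 4. Alb, serum albumin, had 11.7, 0.27, 15.8, 13.1 and 5.27 CPM in AAV-Osm 1 to 5, against 0.85, 8.07, 70.8 and 29.6 CPM in AAV-Null 1 to 4, so AAV-Null 3 and AAV-Null 4, the libraries with high Krt8, Krt18 and Krt7, also held the most Alb. Krt8 and Krt18 are keratins of liver cells as well, and 6 of the 25 liver genes were at 0 in some library. The most abundant liver genes, Trf and Vtn, are also made outside the liver and were at -0.33 (SE 0.31) and -0.23 (SE 0.16). Both were highest in AAV-Null 4, at 125 and 51.4 CPM of its sum of 342 CPM. What part liver RNA has in the keratin values was not tested.

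Of 9 atrial genes, 7 were tested and 0 passed. Their median log2 fold change was -0.13, and 4 of the 7 were negative, against 48.1% of all genes. Their summed level, 399 to 879 CPM in AAV-Osm and 346 to 668 CPM in AAV-Null libraries, was mostly Nppa. On the log2 scale Nppa was at 0.34 (SE 0.26) and Stard10, the next most abundant, at -0.30 (SE 0.24). Myl7, named for its likeness to Upk3b as given above, had the lowest value of the list, -1.71 (SE 0.53). What part atrial tissue has in the Upk3b values was not tested. Of 16 lung genes, 3 were tested and 1 rose, Scgb3a1, a secreted airway protein, at 2.09 to 4.99 CPM in AAV-Osm and 0.20 to 0.49 CPM in AAV-Null libraries (log2 fold change 3.07, SE 0.37, adjusted p = 0.00496 in edgeR). The surfactant genes were not analysed here. The remaining lists had 0 members past the threshold. Their medians were 0.10 for cardiomyocyte (10 of 10 tested), -0.23 for fibroblast (12 of 12), 0.00 for endothelial (11 of 12), 0.04 for leukocyte (8 of 9), -0.15 for Schwann cell and nerve (6 of 8), 0.14 for adipocyte (4 of 12) and -0.14 for skeletal muscle genes (6 of 11). All 12 fibroblast genes had a negative log2 fold change, against 48.1% of all genes, and genes measured in the same libraries are not independent. The 2 most abundant fibroblast genes were Dcn at -0.27 (SE 0.22) and Gsn at -0.11 (SE 0.16).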

How the data were processed

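RNA-seq of 9 mouse heart apex samples was analysed. The authors deposited a table of unnormalised read counts for each gene, and the submitters' processing notes name STAR 2.5.2b, Subread 1.5.1 with featureCounts, and the build mm10. No source used here gives the annotation, the strand setting or how multiply mapped reads were handled. The table lists 13192 named genes with summed exon length, and 4141 blank lines were left out. Per the labels' protocols, mRNA was enriched with a KAPA kit and read as 75 base paired ends.

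Groups followed the treatment label, and libraries were numbered as names only. No label states that each came from its own mouse, so p-values measure only the spread between these samples. The smallest chi-square per degree of freedom between 2 libraries was 6.52, above sampling noise.

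Counts were fitted with edgeR 4.0.16 (R 4.3.3): TMM scaling, robust quasi-likelihood F test, two-sided, group as the only term, Benjamini-Hochberg over 13192 genes, adjusted p under 0.05. The filterByExpr step removed 0 genes. The scripts were tested on simulated data. DESeq2 1.42.0, limma 3.58.1 (voom with quality weights), other scalings, filters and left-out libraries were alternatives. Correlations used log2 CPM with a prior count of 2.

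The members and gene lists were chosen with earlier results of these data known. Genes named were the members, every other keratin, up to 4 genes past the threshold and the 2 most abundant in each list described, and the 5 genes most like Upk3b and Krt8. Nkain4, Rspo1, Tbx18, Tcf21, Aldh1a2, Sema3d, Ildr2, Itga4, Cxadr, Pdpn, Alcam, Grhl2, Cyp26b1 and Alb were added after their values were seen.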

Additional observations from a re-analysis of the deposited data

Results flagged for a closer look

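In 38 genes, each group was searched for a highest or lowest library set off from the rest of its group by Dixon's criterion. Of the 76 gene and group pairs, 12 were set off, and the genes are not independent of each other. Chance gives about 1 in 20 for normally distributed values. The criterion was applied to CPM without a log scale, so that share need not hold here. In AAV-Null 4 there were 8 genes in all set apart as the highest of the AAV-Null libraries: Upk3b at 56.0 CPM, Msln at 44.1 CPM, Lrrn4 at 11.4 CPM, Nkain4 at 11.2 CPM, Tm4sf1 at 83.2 CPM, Myl7 at 11.1 CPM, C2 at 8.36 CPM and Fmod at 36.0 CPM. Msln, Lrrn4, C2, Fmod and Myl7 were themselves taken for their likeness to Upk3b, and Nkain4 ranked high for it too (r = 0.97), so these do not count as separate cases.

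AAV-Osm 5 was set apart from the other AAV-Osm libraries in 4 genes. Wt1 was high there, at 4.04 CPM, as were Scgb3a1 at 4.99 CPM and Dsp at 535 CPM, and Wfdc2 was low, at 0.047 CPM, which was 1 count.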

How the results depend on the processing

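The number of genes past the adjusted threshold, 16 with edgeR, was 53 with DESeq2 (24 higher, 29 lower in AAV-Osm) and 176 with limma-voom and quality weights (83 higher, 93 lower), and 4 to 11 with a library left out in turn. Of the 9 genes described, 0 passed with edgeR, also with each library left out, and 1 with DESeq2 and 1 with limma-voom, Slc39a8 in both. The number whose groups did not overlap was 1 with TMM and 2 with total counts, when Upk3b joined Krt19; that comparison and the fit without AAV-Null 4 and AAV-Osm 5 were chosen after seeing the data. The other epicardial and mesothelial markers and the epithelial genes stayed at 0 under all 19 alternatives. No direction was reversed for any of the 9 genes. Log2 fold changes moved by more than the SD between libraries (log2 CPM, pooled within groups) for Krt7 (-0.60) and Krt8 (-0.45) with limma-voom, and for Krt7 (-0.46), Krt8 (-0.11) and Krt18 (-0.28) without AAV-Null 3 and AAV-Null 4. Shifts within that SD could still exceed the SE: limma-voom gave -0.82 for Upk3b, -1.11 for Wt1, -0.51 for Krt18 and -1.05 for Krt19, and Upk3b and Krt19 were at -0.71 and -0.77 without AAV-Null 3 and AAV-Null 4. Why the tools differ was not tested. Other scalings moved the median of all genes by at most 0.03 on the log2 scale, and a minimum mean of 1 CPM left Bnc1 out. No paired analysis was possible because the labels give no pairing of AAV-Osm with AAV-Null libraries. Few reads limit Bnc1, with 22 counts at most in a library, and Krt7 and Krt8 in AAV-Osm libraries, with 5 and 11 counts at least.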
